A study of Mus musculus with 6 samples.

Results

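Adhesion G protein-coupled receptors (adhesion GPCRs) combine a long extracellular region, used for contact with other cells or with matrix, with a membrane-spanning part that signals inside the cell. Described here are 10 of these receptor genes that are known from neurons and glia: the Adgrb genes Adgrb1, Adgrb2 and Adgrb3, the latrophilins Adgrl1, Adgrl2 and Adgrl3, and Adgrg1, Adgrg6, Adgra1 and Adgra3. They were found by gene symbol, and all 10 were among the 17971 genes of the deposited table. All 10 also passed the filter on low counts, which left 14338 genes to test. The set was chosen by what these genes are known for, and after the cKO against Ctrl values had shown Adgrb1 among the genes that differed between the groups. The differences of the 10 genes are therefore given as a description of these libraries, and their adjusted p-values, taken over all genes, are no independent support for them.

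Most adhesion GPCRs are cut once by their own GAIN domain during maturation, and the extracellular fragment stays attached to the receptor. Ligand binding or mechanical pull can then expose a short tethered peptide that activates the membrane-spanning part. In peripheral nerves the best-known member is Adgrg6, which Schwann cells need for radial sorting of axons and for myelination. Latrophilins are known for their role at synapses and in axon guidance, and Adgrb1 for the recognition of dying cells and for dendrite and synapse formation.

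Gene expression was measured by RNA-seq in dorsal root ganglia, the clusters of sensory neurons and their glia beside the spinal cord, dissected from male E13.5 mouse embryos. Genotype was the variable. The 3 cKO libraries carried the genotype Wnt1-cre+/-;Ybx1fl/fl, in which Cre recombinase acts in the neural crest lineage, and the 3 Ctrl libraries came from Ybx1fl/fl littermates. Both groups thus carry floxed Ybx1 alleles, and only cKO carries Cre, so Ybx1 deletion and the presence of Cre cannot be told apart. Blood and endothelial cells of the ganglia lie outside that lineage and keep Ybx1.

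Libraries held 16464264 to 17446385 estimated counts. The targeted gene Ybx1, which encodes an RNA-binding protein of the cold-shock domain family, had 809 to 927 normalised CPM (a count divided by the effective library size) in Ctrl and 108 to 137 in cKO, so each library went with its label. The libraries numbered 1 stood apart: their deposited FPKM values summed to 590156 in Ctrl and 614728 in cKO, against 548068 to 551964 in the other 4. All 8 neuron markers and all 8 markers of Schwann and satellite glia that were listed for the tissue were found. Summed glial markers were 1339 to 1435 CPM in Ctrl and 1464 to 1586 in cKO, and summed neuron markers were 10560 to 11240 and 10520 to 10740. Erythroid markers were highest in cKO replicate 1, at 10150 CPM against 2454 to 4390 elsewhere.

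The 10 genes covered a wide range of levels, and the order was led by Adgrg1. Adgrg1, a receptor for collagen III known from cortical development and from oligodendrocyte precursors, stood at 184 ± 12.9 TPM in Ctrl and 193 ± 28.1 in cKO (a level scaled per transcript length and library; SD, n = 3 libraries per group). It made up 42.9% to 47.6% of the summed TPM of the 10 genes in each of the 6 libraries. Next in Ctrl came Adgrl1 at 70.7 ± 9.45, Adgrl2 at 46.1 ± 6.73, Adgra3 at 39.8 ± 0.25 and Adgrg6 at 27.03 ± 2.401 TPM (SD, n = 3). Adgrl3 followed at 12.2 ± 1.44 TPM, then the 3 Adgrb genes between 6.42 and 7.89 TPM, and Adgra1 was lowest at 3.16 ± 0.51. In Ctrl the library ranges of neighbours in this order overlapped for Adgrl2 with Adgra3 and for Adgrb1 with Adgrb3, and for no other neighbours. Against all genes of the table, Adgrg1 had a higher mean Ctrl TPM than 95.5% and Adgra1 a higher one than 32.9%.

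**Figure D1:**
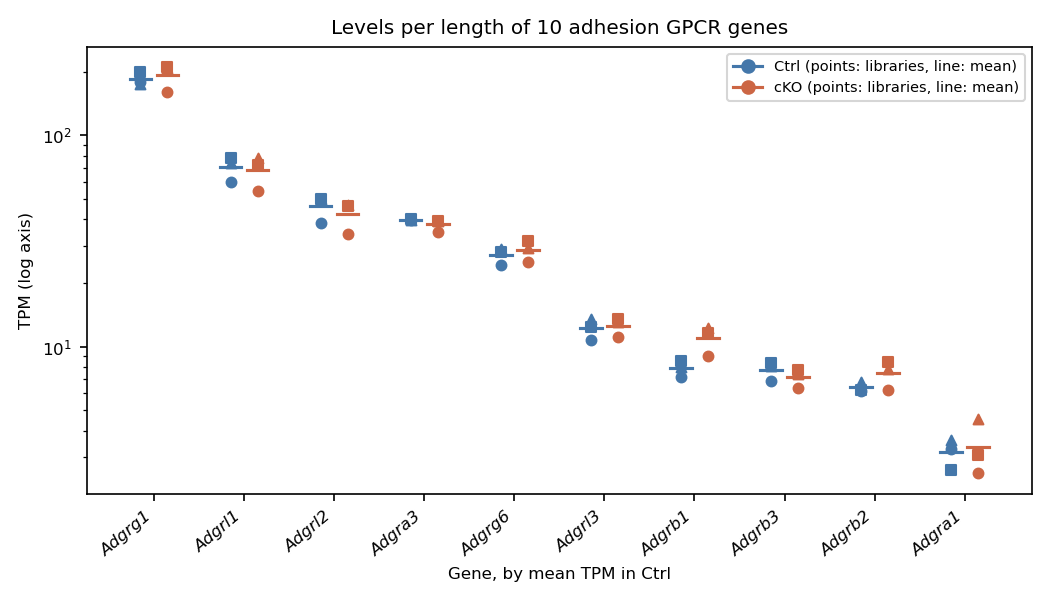
TPM of the 10 genes (log axis) in each Ctrl library (blue) and cKO library (orange), ordered by the Ctrl mean; circles, squares and triangles are replicate numbers 1, 2 and 3, and short lines are group means. Adgrg1 leads at 184 TPM in Ctrl and Adgra1 is last at 3.16, and Adgrb1 is the gene whose 3 cKO points lie above its 3 Ctrl points.

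Adgrb1 was seventh in this order in both groups, and in cKO it stood further above the other Adgrb genes. Adgrb2 and Adgrb3, which follow it, traded places between the groups, and in cKO their ranges overlapped. Adgrb1 TPM was 7.16, 8.51 and 7.99 in Ctrl replicates 1 to 3 and 8.99, 11.6 and 12.3 in cKO replicates 1 to 3. All cKO values were thus above all Ctrl values, and in cKO the range of Adgrb1 overlapped that of Adgrl3, which it did not in Ctrl. Its relative Adgrb3 had 6.88, 8.39 and 8.08 TPM in Ctrl and 6.33, 7.78 and 7.42 in cKO. Within a library, where no scaling between libraries enters, the TPM ratio of Adgrb1 to Adgrb3 was 1.04, 1.01 and 0.99 in Ctrl and 1.42, 1.495 and 1.66 in cKO. The ratio of Adgrb1 to Adgrb2 was 1.16, 1.36 and 1.17 in Ctrl and 1.44, 1.38 and 1.57 in cKO. Adgrb1 and Adgrb3 were thus at near-equal levels in every Ctrl library, and Adgrb1 was the higher of these genes in every cKO library.

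In the comparison of cKO with Ctrl, 1 of the 10 genes passed, Adgrb1, as higher in cKO. Over all genes 0.481% passed, which is 69 of 14338, with 0.112% as higher and 0.37% as lower. Of the other 9 genes, 4 had positive and 5 negative log2 fold changes, all between -0.12 and 0.20. The median of the 10 was 0.01 on the log2 scale, against a median of 0.00 over all genes tested. With the replicate number as a block, since controls were littermates and same-numbered libraries deviated together, Adgrb1 again passed alone, where 5.33% of all genes did, 1.76% as higher and 3.56% as lower. Normalised CPM of the groups did not overlap for 2 of the 10, Adgrb1 and Adgra3, against 16.6% of all genes. Every cKO value was above every Ctrl value for 1 of them, Adgrb1 (7.83% of all genes), and below for 1, Adgra3 (8.77%). The difference between same-numbered libraries had one sign in all 3 numbers for 5 of the 10, against 39.9% of all genes: Adgrb1 and Adgrb2 were higher in cKO each time, and Adgrb3, Adgrl2 and Adgra3 lower. Of all genes 19.6% were higher in cKO each time.

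**Figure D2:**
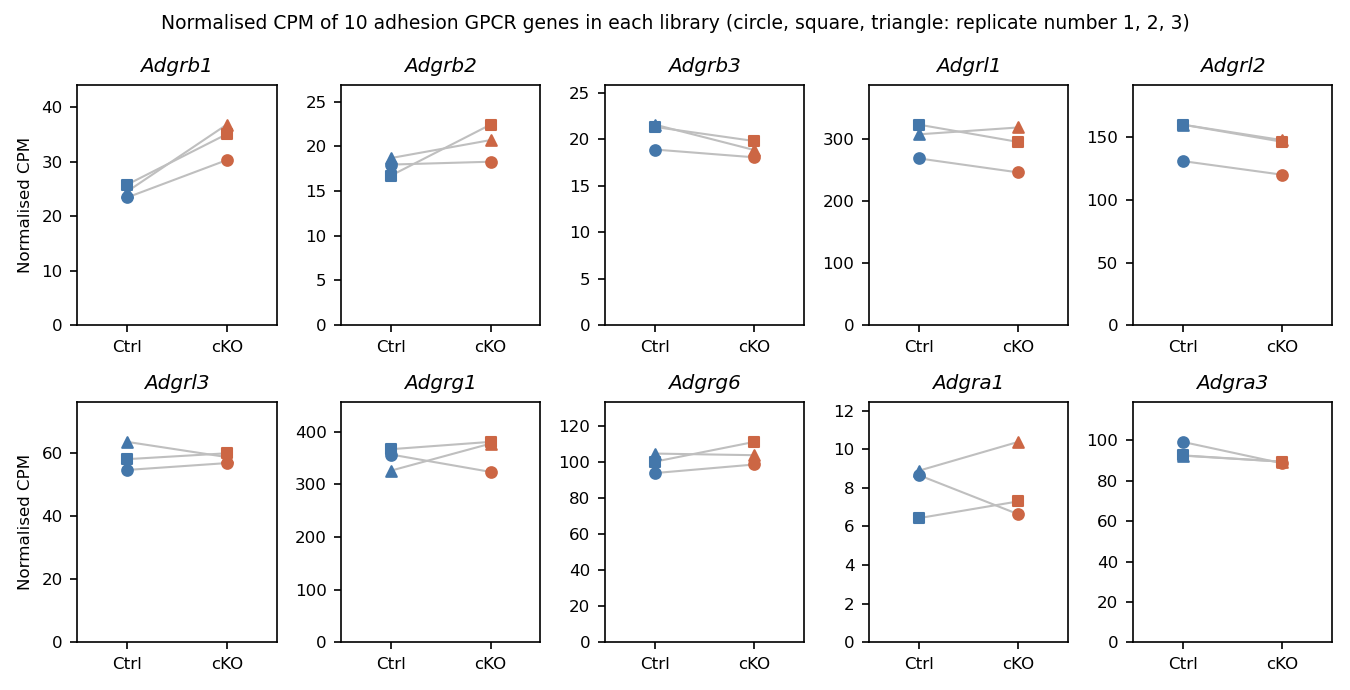
Normalised CPM of each gene in Ctrl (blue) and cKO (orange), with the axis from 0; grey lines join libraries of the same replicate number (circle 1, square 2, triangle 3). For Adgrb1 the 3 lines rise from 23.4 to 25.8 CPM in Ctrl to 30.3 to 36.8 in cKO, and for most other genes the points of the groups overlap.

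Adgrb1 (gene identifier 107831, chromosome 15, 74516196 to 74589465, GRCm38) encodes a receptor that binds phosphatidylserine on dying cells and signals through ELMO and DOCK proteins to Rac. Its normalised CPM was 23.4, 25.8 and 24.5 in Ctrl replicates 1 to 3 and 30.3, 35.0 and 36.8 in cKO replicates 1 to 3, from 400 to 433 counts in Ctrl and 525 to 631 in cKO. The lowest cKO library, replicate 1, was above the highest Ctrl library, replicate 2. The log2 fold change was 0.47 (SE 0.09, 1.39-fold), with an edgeR adjusted p of 0.0492. With the replicate block it was 0.47 (SE 0.07, blocked edgeR adjusted p 0.00092), and within numbers 1, 2 and 3 it was 0.36, 0.44 and 0.58.

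The size of the Adgrb1 difference was steady across fits, and its call was not. Over 20 other fits the log2 fold change lay between 0.41 and 0.55. The call was lost with DESeq2 size factors (edgeR adjusted p 0.0505), with limma-voom (adjusted p 0.0622) and on leaving out single libraries. The edgeR adjusted p was 0.0848, 0.167 and 0.211 with Ctrl replicate 1, 2 or 3 left out, and 0.22 and 0.136 with cKO replicate 2 or 3 left out. With cKO replicate 1 left out Adgrb1 still passed (0.00763). Without both libraries numbered 1 the log2 fold change was 0.51 (edgeR adjusted p 0.000108), without both numbered 2 it was 0.48 (0.553) and without both numbered 3 it was 0.41 (0.456). In the blocked model Adgrb1 passed on leaving out each of the 3 numbers in turn. Summed macrophage markers were 96.1 to 112 CPM in Ctrl and 113 to 161 in cKO and, like the glial markers, were highest in cKO replicate 1. Adgrb1 itself had 30.3, 35.0 and 36.8 CPM in cKO replicates 1 to 3. Summed markers of spinal cord, where Adgrb genes are also expressed, were at most 0.596 CPM in Ctrl. In cKO replicates 1 to 3 the spinal cord sums were 1.27, 1.23 and 4.32 CPM. The value of replicate 3 rested on few counts, among them 26 of Lhx1 and 17 of Pax2. Of these 8 markers the filter on low counts kept only Pax6, and it did so through the cKO libraries alone. Estimated Pax6 counts were 12.89, 18.11 and 15.09 for cKO replicates 1 to 3, against 2.52, 2.59 and 3.8 for Ctrl. The minimum count of the filter was 10. Pax6 passed as higher in cKO, but a gene kept this way was bound to lie higher there, so its direction is uninformative. Pax6 had 0.174, 0.179 and 0.245 CPM in Ctrl replicates 1 to 3 and 0.75, 1.05 and 0.875 in cKO replicates 1 to 3, low levels but higher in each cKO library, a log2 difference of 2.12 with edgeR adjusted p-values of 0.045 without and 0.0107 with the block. The part of cell makeup in the Adgrb1 difference was not tested, and in whole ganglia more cells of a type and more RNA per cell cannot be told apart.

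**Figure D3:**
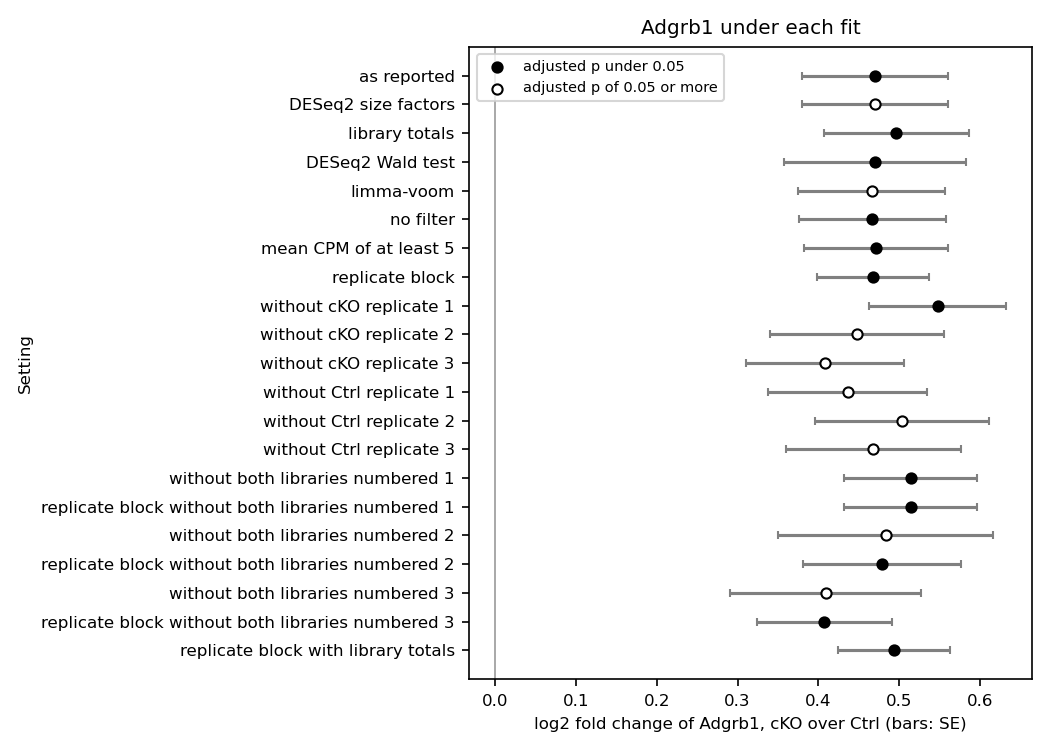
Log2 fold change of Adgrb1 (x axis, cKO over Ctrl, bars are the SE) in the reported model and in 20 other fits (y axis). Values lie between 0.41 and 0.55; filled points have an adjusted p under 0.05 and open points do not.

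Adgrb2 and Adgrb3, the other Adgrb genes, did not pass. Adgrb2 (gene identifier 230775, chromosome 4, 129984773 to 130022633) had 18.0, 16.7 and 18.7 CPM in Ctrl and 18.3, 22.4 and 20.7 in cKO. Its highest Ctrl library was above its lowest cKO library, so the groups overlapped. The log2 fold change was 0.20 (SE 0.10, 95% interval -0.01 to 0.41, edgeR adjusted p 0.503). Differences within numbers 1, 2 and 3 were 0.03, 0.41 and 0.14, and Adgrb2 passed in a single fit, the blocked model without both libraries numbered 1 (log2 fold change 0.28, blocked edgeR adjusted p 0.041). Adgrb3 (gene identifier 210933, chromosome 1, 25067476 to 25834772), a synaptic receptor for C1q-like proteins, had 18.9, 21.3 and 21.6 CPM in Ctrl and 18.1, 19.8 and 18.8 in cKO. Its log2 fold change was -0.12 (SE 0.09, 95% interval -0.32 to 0.07, edgeR adjusted p 0.695). Summed TPM of the 3 Adgrb genes was 22.1 ± 1.62 in Ctrl and 25.7 ± 3.55 in cKO (SD, n = 3), and the ranges overlapped.

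The latrophilins are neuronal receptors for teneurins and FLRT proteins on other cells, and none of the 3 passed. Adgrl1 (gene identifier 330814, chromosome 8, 83900098 to 83941954), first known as a receptor for the spider toxin alpha-latrotoxin, had 269, 323 and 308 CPM in Ctrl and 246, 295 and 319 in cKO. Its log2 fold change was -0.06 (SE 0.10, 95% interval -0.29 to 0.16, edgeR adjusted p 0.884), and 0.03 without cKO replicate 1. Adgrl2 (gene identifier 99633, chromosome 3, 148815586 to 148989096) had 131, 160 and 160 CPM in Ctrl and 120, 146 and 148 in cKO. For both genes the number 1 library was the lowest of its group, in Ctrl as in cKO, so the spread within each group followed the replicate number. Adgrl2 differed by -0.13, -0.13 and -0.12 within numbers 1, 2 and 3, and its blocked 95% interval was -0.23 to -0.02, with a blocked edgeR adjusted p of 0.171. Adgrl3 (gene identifier 319387, chromosome 5, 81019085 to 81827825) had 54.7 to 63.7 CPM in Ctrl and 56.9 to 60.0 in cKO. Its log2 fold change was -0.01 (SE 0.07), and 0.02 with library totals in place of TMM scaling.

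Adgrg6 and Adgrg1, receptors known from glia, did not pass either. Adgrg6 (gene identifier 215798, chromosome 10, 14402583 to 14545723) had 94.0, 100.3 and 105 CPM in Ctrl and 98.7, 111 and 104 in cKO. The groups overlapped, and the log2 fold change was 0.07 (SE 0.07, 95% interval -0.09 to 0.23, edgeR adjusted p 0.823). The markers of Schwann and satellite glia were 8 of 8 on the positive side, at a median log2 fold change of 0.19. No glial marker passed in the model without the block, and 5 were higher with it. Of the 8 neuron markers, 3 were on the positive and 5 on the negative side, at a median of -0.07. None of them passed without the block, and 2 were lower with it. These were Isl1 (-0.21, blocked edgeR adjusted p 0.00833) and Stmn2 (-0.20, blocked edgeR adjusted p 0.00858). Adgrg1 (gene identifier 14766, chromosome 8, 94974756 to 95014208) had 357, 367 and 326 CPM in Ctrl and 324, 381 and 377 in cKO. It was lower in cKO within number 1 and higher within numbers 2 and 3, by -0.14, 0.05 and 0.21 on the log2 scale, and the log2 fold change was 0.04 (SE 0.08, 95% interval -0.14 to 0.23).

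The signalling of Adgra1 and Adgra3, both of the Adgra subfamily, is little known. Adgra3 (gene identifier 70693, chromosome 5, 49959951 to 50058996) had 99.3, 92.6 and 92.5 CPM in Ctrl and 88.7, 89.5 and 89.5 in cKO. Every cKO library was below every Ctrl library, by a small margin, and the log2 fold change was -0.09 (SE 0.06, 95% interval -0.23 to 0.05, edgeR adjusted p 0.704). In TPM, which is scaled differently, Adgra3 had 39.7 to 40.1 in Ctrl and 34.8 to 39.4 in cKO, with the lowest value in cKO replicate 1. Adgra1 (gene identifier 52389, chromosome 7, 139834097 to 139878088), the lowest gene, had 108 to 149 counts in Ctrl and 115 to 178 in cKO. Its log2 fold change of 0.02 had the widest interval of the 10, -0.37 to 0.41. With the replicate block that interval was -0.27 to 0.30.

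**Figure D4:**
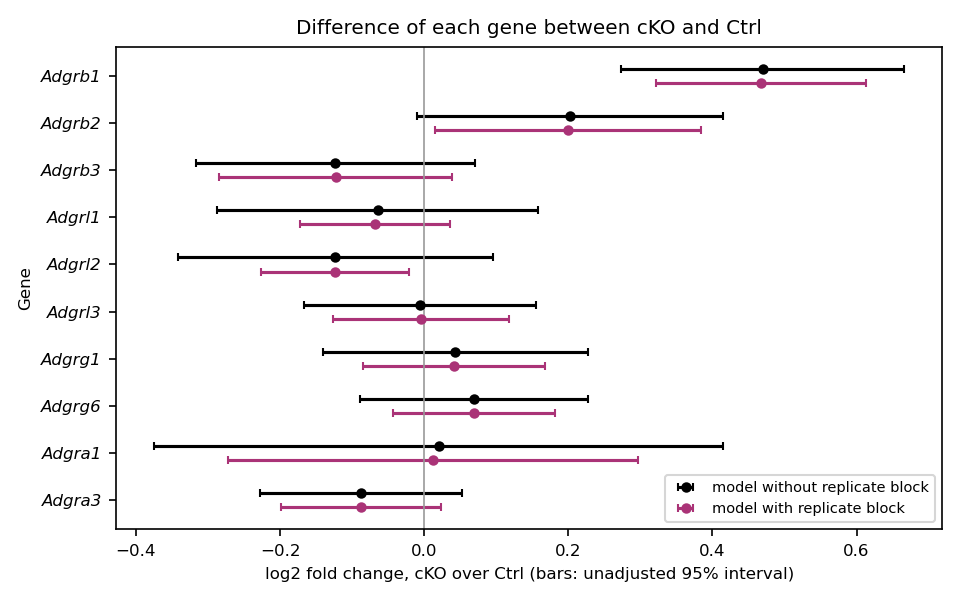
Log2 fold change of each gene, cKO over Ctrl, with its unadjusted 95% interval, from the model without the replicate block (black) and with it (purple). The intervals of Adgrb1 lie above 0 in both models, and of the other 9 genes those of Adgrb2 and Adgrl2 leave out 0 in the blocked model alone, before adjustment over all genes.

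Levels of some of the 10 genes followed the replicate number, as those of many other genes did. In a comparison of the libraries numbered 1 with those numbered 2 and 3, with the group in the model and chosen after seeing the data, 2 of the 10 genes passed, both as lower in number 1. These were Adgrl1 (log2 difference -0.27, SE 0.05, edgeR adjusted p 0.0038) and Adgrl2 (-0.29, SE 0.05, edgeR adjusted p 0.00249). Over all genes, 15.9% passed in this comparison, 8.82% as lower and 7.08% as higher. Calls went with transcript length. Of 4161 genes with an effective length (explained below) over 4000 bases, 974 passed as lower and 14 as higher. Of 4671 genes under 2000 bases, 50 passed as lower and 891 as higher. All of the 10 genes but Adgrg1 were over 4000 bases, so their 2 calls stand beside 974 of 4161 and are not particular to these receptors. The number 1 library was the lowest of its group in both groups for 6 of the 10, against 23.8% of all genes; for none of the 10 was it the highest in both, against 23.8% as well. Adgrb1 was among these 6 (-0.18, SE 0.07, edgeR adjusted p 0.11). The shares of 23.8% were not computed by length class. Outside the 10 genes, Celsr2 (-0.39, SE 0.07) and Celsr3 (-0.45, SE 0.06) passed as lower in number 1, with edgeR adjusted p-values of 0.00244 and 0.000927.

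The deposited counts and TPM also give an effective length for each gene, the mean length of its transcripts weighted by their estimated shares. It can move where isoforms of other lengths are used. Between Ctrl and cKO it changed by 0.94% for Adgrb1 and by -2.42% and -2.04% for Adgra1 and Adgrl3, and by less than these 3 for the other 7 genes. Over all genes the median size of this change was 0.227%. The groups did not overlap for 4 of the 10 genes (Adgrb1, Adgrl2, Adgrg1 and Adgra1), against 7.5% of all genes, and for 2 of them (Adgrg1 and Adgra1) when the length was taken from FPKM. The values over all genes were not matched to the 10 genes for number of transcripts. Mean TPM of Adgrb1 differed by 39.1% between the groups, and its effective length by 0.94%. A mean length cannot show a change between isoforms of similar length, and the part of isoform use was not tested. No count of the 10 genes had a fractional part in any library.

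Of the 20 other adhesion GPCR genes listed, 14 could be tested and none passed, with or without the block, by edgeR. Without the block 1 of the 14 had an unadjusted p under 0.05, against 1538 of the 14338 genes tested. Their median log2 fold change was -0.05, with 5 positive and 9 negative values. The highest by TPM were Adgrg2 (32.0 ± 2.58 in Ctrl and 29.8 ± 4.78 in cKO; SD, n = 3), Celsr3 (28.4 ± 5.50 and 26.4 ± 6.80), a cadherin-type receptor of planar cell polarity and axon tracts, and Adgra2 (23.9 ± 2.18 and 24.6 ± 1.53), a Wnt7 co-receptor of brain vessels. Their log2 fold changes were -0.12 (SE 0.08), -0.12 (SE 0.15) and 0.03 (SE 0.07), and Celsr2 had -0.01 (SE 0.13). The gene nearest to Adgrb1 in size of difference was Adgre1, the macrophage marker F4/80, named after its values were seen. It had 6.28, 5.48 and 5.82 CPM in Ctrl and 9.75, 7.07 and 6.88 in cKO, which is 0.43 on the log2 scale with an SE of 0.16 and an adjusted p of 0.329 by edgeR. With cKO replicate 1 left out it was 0.25. The macrophage markers were likewise 8 of 8 on the positive side; 0 passed without the block and 1 with it.

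**Figure D5:**
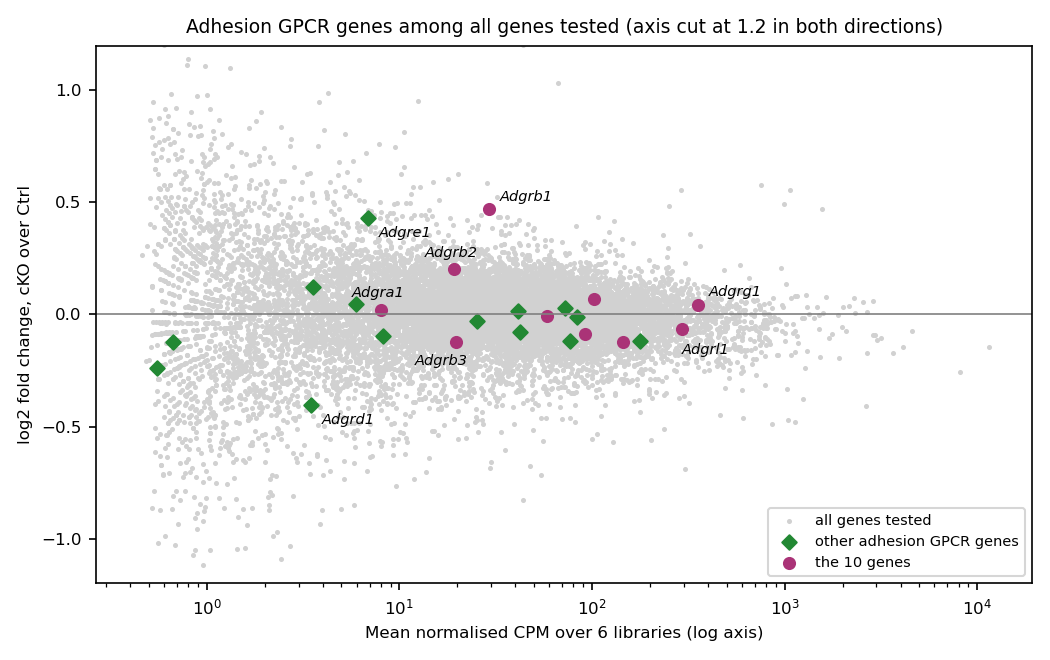
Log2 fold change, cKO over Ctrl, against mean normalised CPM (log axis) for all genes tested (grey), the 10 genes (purple) and 14 other adhesion GPCR genes (green); 20 genes lie outside the axis. Adgrb1 at 0.47 lies at the edge of the grey cloud at its level, and the other 9 of the 10 genes lie within it.

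Genes for binding partners of these receptors were listed by the receptor they bind. Of 11 latrophilin partners none passed, with or without the block. Their median was -0.10 on the log2 scale. Without the block 1 had an unadjusted p under 0.05 by edgeR, against 1538 of the 14338 genes tested. The most highly expressed was the teneurin Tenm3 (log2 fold change -0.02, SE 0.09; 0.00 with library totals).

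Of 8 Adgrb partners 5 could be tested and none passed by edgeR, with or without the block. Over all genes 1538 of 14338 had an unadjusted p under 0.05 without the block, and of these 5 partners 2 did. These were the Nogo receptor Rtn4r, at 0.24 on the log2 scale with an SE of 0.09, and C1ql3, a secreted ligand of Adgrb3, at 0.45 with an SE of 0.20; both were chosen for naming once their values had been seen. Adjusted p-values by edgeR were 0.381 and 0.463 without the block, and 0.0545 and 0.237 with it. Both genes were higher in cKO within all 3 numbers, and their groups overlapped. The highest by CPM were the Nogo receptor relatives Rtn4rl1 (log2 fold change -0.09, SE 0.07) and Rtn4rl2 (0.04, SE 0.09). Of 8 Adgrg partners, which include collagens and laminins, none passed without the block and 1 was higher with it. This was Col4a2, a chain of basement membrane collagen IV, which binds Adgrg6. Its mean CPM was 543 ± 8.63 for Ctrl against 632 ± 22.7 for cKO (SD, n = 3). The difference was 0.22 on the log2 scale, with an edgeR adjusted p of 0.254 without the block and 0.0096 with it.

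Inside the cell, 20 partners were listed, among them Elmo1, Elmo2 and Dock1 downstream of Adgrb1 and the Shank and Magi scaffolds. None passed without the block, and with it 1 was lower, Dlg4, a scaffold protein of the postsynaptic density. Mean Dlg4 CPM was 110.0 ± 7.39 for Ctrl against 92.4 ± 4.31 for cKO (SD, n = 3). The difference was -0.25 on the log2 scale, with an edgeR adjusted p of 0.192 without the block and 0.0159 with it. The median log2 fold change of the 20 was 0.00, with 10 positive and 10 negative values. The 5 genes listed downstream of Adgrg6 in Schwann cells had a median of 0.20. None of these 5 passed without the block, and 2 were higher with it, among them the myelin gene Mbp. Mean Mbp CPM was 110.2 ± 5.27 for Ctrl against 137 ± 10.7 for cKO (SD, n = 3), a log2 difference of 0.31 with edgeR adjusted p-values of 0.112 without and 0.00329 with the block. Mbp is also among the 8 glial markers, whose sum did not overlap between the groups.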

How the data were processed

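RNA-seq of dorsal root ganglia gave 6 libraries, 3 cKO and 3 Ctrl. The submitters' processing notes name RSEM 1.3.1, Bowtie2 2.4.5, HISAT2 2.2.1 and the build GRCm38 (mm10), with no role or order; strandedness is not stated in the sources used here. The authors deposited estimated counts per gene, TPM values and FPKM values for each library. No column was left without a sample. Coordinates are those of RefSeq for GRCm38.p6.

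Counts were rounded to whole numbers, and filterByExpr of edgeR removed 3633 genes. Libraries were scaled by TMM and tested in edgeR 4.0.16 under R 4.3.3 (quasi-likelihood, robust, two-sided). P-values were Benjamini-Hochberg adjusted over all genes tested, at a threshold of 0.05. The model without the replicate number was the main one. SEs came from the fold change and its F statistic, intervals are unadjusted, and CPM used TMM library sizes. The scripts were tested on simulated counts. TPM was used for levels between genes, and TPM and FPKM for effective lengths (count over TPM, scaled by the median over genes; in bases from FPKM), with no test.

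Titles number the libraries 1 to 3 in both groups, sample codes share their start within a number, and controls are littermates. Within numbers 1, 2 and 3 the deviations from the group mean had a correlation of 0.383, 0.22 and 0.189 across genes. Deviations within a group are tied to each other by its mean, so these 3 values are not independent. Each Ctrl library correlated most with the cKO library of its own number. The numbers were taken to pair the libraries. The labels call the samples biological replicates.

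The 10 genes, the lists of related genes and the cell markers were chosen with earlier results of these data known. Named genes were the 10; Ybx1; for each list up to 3 members called (in the main or then the blocked model), or else the 2 highest by CPM; and the 3 other adhesion GPCR genes highest by TPM. Some genes that this rule names are not reported here. Alternatives were DESeq2 1.42.0 size factors and test, library totals, limma-voom (limma 3.58.1), other filters, TPM with pseudocounts of 0.1 and 1, a block for the replicate number, and leaving out each library in turn. Chosen after seeing the data were models without both libraries of a number, the block with library totals, and a comparison of replicate numbers. Figures were drawn with matplotlib 3.10.9.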

Additional observations from a re-analysis of the deposited data

How the results depend on the processing

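The count of all genes called, 69, was 44 with library totals, 184 with the DESeq2 test, 128 with no filter and 764 with the replicate block; it ran from 18 to 104 on leaving out one library. Without both libraries numbered 1, 2 or 3 it was 731, 8 and 2, and with the block 1252, 260 and 836; with the block and library totals it was 799. The count among the 10 genes, 1, was 0 with DESeq2 size factors, with limma-voom and without both libraries numbered 2 or 3, with 1 gene at an unadjusted p under 0.05 in each (the DESeq2 test called 1); it ran from 0 to 1 on leaving out one library, and was 2 with the replicate block without both numbered 1. The replicate block changed no other call among the 10 genes, and for the listed related genes it changed those of Col4a2, Dlg4 and Mbp, among others. Log2 fold changes near 0 changed sign, none of them called, and the cause was not tested. With library totals, and with the block and library totals, Adgrl3 had 0.0202 and 0.0219, Celsr2 0.016 and 0.0049, and Tenm3 0.0028 and 0.00028. Without both libraries numbered 1, and with the block, Celsr2 had 0.066 and 0.067, Tenm3 0.0023 and 0.0022, and Adgra2 -0.0231 and -0.0234. Without both numbered 2, and with the block, Adgra1 had -0.0462 and -0.0641. Without both numbered 3, and with the block, Adgrl3 had 0.0508 and 0.0508, Adgrg1 -0.0387 and -0.043, Adgra1 -0.116 and -0.111, and Rtn4rl2 -0.0338 and -0.0328. Leaving out one library gave ranges of -0.0557 to 0.0535 for Adgrl3, -0.12 to 0.15 for Celsr2, -0.086 to 0.0649 for Tenm3, -0.15 to 0.0338 for Adgrl1, -0.27 to 0.0289 for Celsr3, -0.20 to 0.15 for Adgra1, -0.0101 to 0.0588 for Adgra2, -0.0049 to 0.12 for Adgrg1 and -0.0486 to 0.14 for Rtn4rl2. Adgra1 had the fewest counts of the 10 and the widest interval; the part of depth in that width was not tested.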

Other observations

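Gene length moved with the difference between the libraries numbered 1 and the other 4. Over all genes tested, the median log2 difference of number 1 was 0.13 for 4671 genes with an effective length under 2000 bases and -0.12 for 4161 genes over 4000 bases. Effective lengths of the 10 genes ran from 3336 bases for Adgrg1 to 8418 for Adgrl3, and those of Celsr2 and Celsr3 were 8876 and 11540. In the comparison of cKO with Ctrl the medians of the same length classes were 0.02 and -0.01. The part of transcript length in the values of single genes was not tested.

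Few genes near Adgrb1 in the genome could be tested. Of 5 genes of the table within 150 kb of it, 3 could be tested, and none passed with or without the block: Jrk had a log2 fold change of 0.03 (SE 0.11), Them6 -0.04 (SE 0.12) and Lypd2 -0.38 (SE 0.28). They were named after their values were seen. Over all genes 0.481% passed without the block and 5.33% with it. So few genes cannot show whether the region differed, and this was not tested.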
